A study of Mus musculus with 12 samples.

Results

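The starting fibroblasts of the study's 2 chemical arms were compared as the 2 arrays of mouse embryonic fibroblasts (MEFs) labelled SGCF at day 0 and the 2 labelled 6TCF at day 0, which are 4 of the 12 arrays of the series. The arrays were chosen by their sample titles, and 10674 genes were tested. The series follows MEFs under the chemical combinations SGCF and 6TCF, known here only by these code names, at days 0, 5 and 10 on mouse 430A 2.0 expression arrays made by Affymetrix. By the growth protocol, cells of each embryo were grown on a dish in DMEM with 10% fetal bovine serum and moved the next day to a medium with 15% serum and 40 ng/ml basic fibroblast growth factor (bFGF). Both day 0 groups share this growth protocol, and the sources used here name neither the strain nor the embryos' age. Whether the day 0 cells had already been moved to the second medium was not established here. The labels do not say whether the day 0 RNA was taken before or after the chemicals were first added. They also do not say whether the 2 arrays of a group come from separate embryos or cultures, so p-values may measure only technical spread between these arrays. The question addressed is what the starting cultures were made of and what state they were in.

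MEF cultures are prepared from the dissociated tissue of whole embryos, and so they can carry other cells than fibroblasts. Tissue macrophages survive in such cultures and are known by complement C1q, by the receptor of colony-stimulating factor 1 and by the adaptors of Fc receptor signalling. Mesothelium, the flat epithelium that lines the body cavities and covers the internal organs, expresses keratins together with the transcription factor gene Wt1 and the surface proteins mesothelin and uroplakin 3b. In bulk RNA from such cultures, fewer cells of a type and less RNA per cell cannot be told apart.

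The deposited intensity had a median of 74.7 and 86.2 on the SGCF arrays, against 131 and 141 on the 6TCF arrays. The day 5 and day 10 arrays were divided the same way, so that array brightness coincided with the arm. Values were therefore quantile normalized between arrays, and every level below is log2(intensity + 16) after that step, which understates differences of dim genes. Differences are SGCF minus 6TCF with the standard error (SE) of the fit. After normalization, all 18 probe sets of the bacterial hybridization controls stood higher on the SGCF arrays (median difference 0.60), as did 23 of 24 poly-A controls (0.62). In the deposited values 4 of 18 and 9 of 24 did so, with medians of -0.12 and -0.09. The 3' minus 5' signal of the Gapdh control, a measure of how complete the amplified transcripts are, was 0.02 and -0.05 on the SGCF arrays and 0.34 and 0.44 on the 6TCF arrays. That of actin was 0.28 and 0.38, against 0.30 and 0.39. The SGCF arrays differed from each other by at least 1 on the log2 scale in 57 genes, and the 6TCF arrays in 2 genes. A processing batch and the arm cannot be told apart, and the part of these technical differences in the results below was not tested.

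The starting cultures differed in 1857 of 10674 genes, or 17.4%, by limma with Benjamini-Hochberg adjustment over all genes (adjusted p under 0.05, termed called). Of these, 917 genes (8.59%) were higher in SGCF and 940 (8.81%) lower. At least 2-fold differences were present in 84 genes that were higher in SGCF (0.787%) and 123 that were lower (1.15%). The median difference over all genes was 0.02. In 6303 genes (59.1%) the arrays of the 2 groups did not overlap. A fit on the 4 day 0 arrays alone, without the spread of the later arrays, called 631 genes, and 627 when these arrays were also normalized alone. The total also changed when single arrays were left out. It was 530 without 6TCF replicate 1, 378 without 6TCF replicate 2, 2987 without SGCF replicate 1 and 935 without SGCF replicate 2, where the lone remaining array was assumed to vary like the other groups. Without normalization between arrays the median of all genes lay at -0.61, and 7027 genes were called, 65 higher and 6962 lower. The 30 genes with the largest differences kept their direction in each of these settings. They were picked from these same arrays for large differences without overlap, so this is no independent support.

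**Figure D1:**
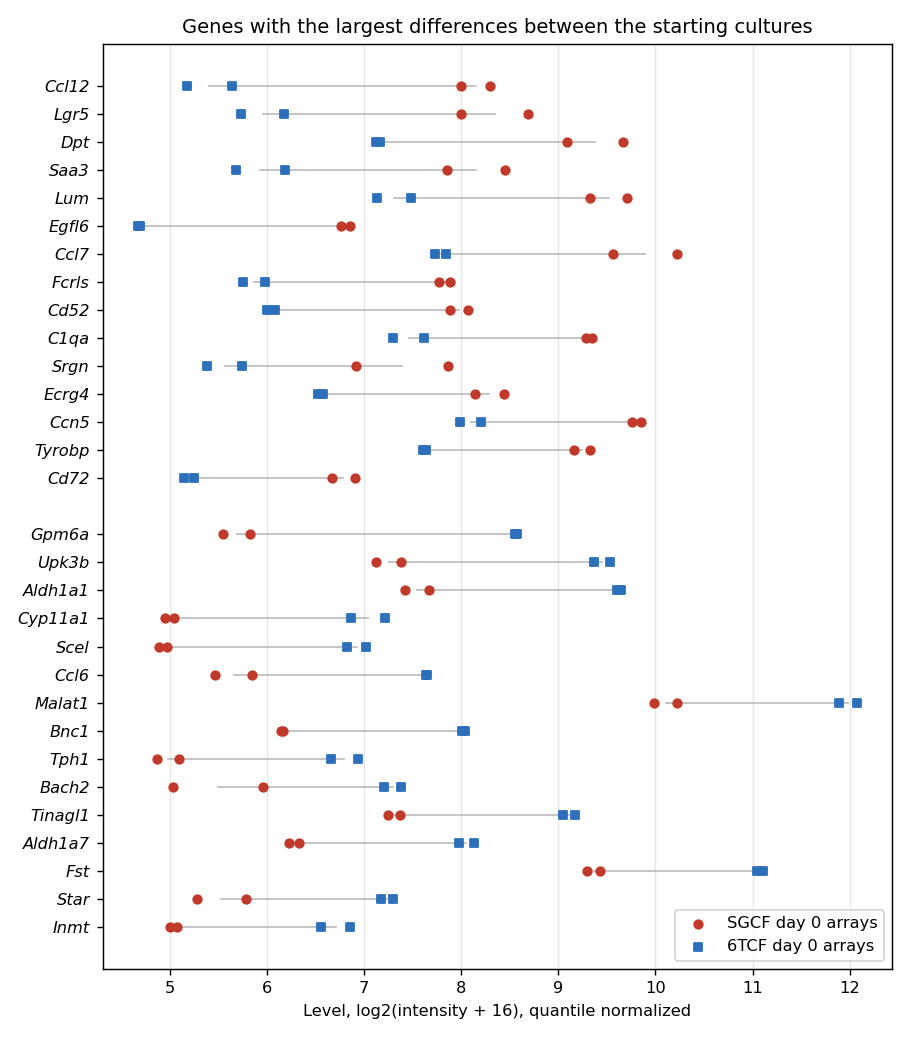
Level, log2(intensity + 16) after quantile normalization, of the 15 genes with the largest rises (upper block) and the 15 with the largest falls (lower block) in SGCF relative to 6TCF at day 0. Circles are the 2 SGCF arrays, squares the 2 6TCF arrays and grey lines join the group means. The arrays of the 2 groups do not overlap in any of the 30 genes.

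Macrophage markers were higher in the SGCF cultures. Of 24 listed genes, 23 were tested, and 20 of these were called higher and 0 lower, against 8.59% of all genes called higher. The complement gene C1qa had levels of 9.29 and 9.35 in SGCF, against 7.62 and 7.30 in 6TCF. This was a difference of 1.86 ± 0.14, or 3.63-fold (limma, adjusted p = 2.25e-05). Cd52, a small surface glycoprotein of leukocytes, read 7.89 and 8.07 in SGCF and 6.00 and 6.09 in 6TCF (1.93 ± 0.17). Tyrobp, a signalling adaptor of myeloid receptors, read 9.16 and 9.33 in SGCF and 7.61 and 7.64 in 6TCF (1.61 ± 0.18). In all of these genes the SGCF arrays lay above both 6TCF arrays by more than the arrays of one group differed from each other. They are among the 15 largest rises, which were picked for arrays without overlap, so this is no independent support. Both SGCF arrays lay above both 6TCF arrays in 31.9% of all genes.

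The defining markers of the lineage moved the same way. Csf1r, the receptor for colony-stimulating factor 1, read 9.52 and 9.21 in SGCF and 8.10 and 8.17 in 6TCF (1.23 ± 0.13, limma adjusted p = 0.000247). Adgre1, which encodes the F4/80 antigen, read 7.82 and 7.88 in SGCF and 6.90 and 7.02 in 6TCF (0.88 ± 0.12). Ptprc, the pan-leukocyte phosphatase CD45, read 6.78 and 6.60 in SGCF and 5.56 and 5.68 in 6TCF (1.07 ± 0.13). The actin-binding leukocyte gene Coro1a was also among the rises (1.40 ± 0.15). In all 23 tested members both SGCF arrays lay above both 6TCF arrays, as they did in 31.9% of all genes. The mean level of the 23 genes was 7.97 and 8.0 in the SGCF arrays and 6.97 and 6.91 in the 6TCF arrays, and their summed intensity was 8853 and 9936, against 4208 and 4003. The members not called were Ctss (0.59 ± 0.29), Cx3cr1 (0.38 ± 0.20) and Spi1 (0.22 ± 0.12), and Itgam lay below the filter.

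The median difference of the 23 macrophage markers was 1.07, beside 0.02 for all genes. Without normalization the median was 0.41 and 8 members were called, with the median of all genes at -0.61. Leaving out an array gave 14 to 19 called members.

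The promoters of this list were searched for GAGGAAG on both strands, a core of the binding motif of PU.1, the myeloid transcription factor that Spi1 encodes. The motif was found in 7 of the 15 tested members with a promoter in the RefSeq table, 46.7%, and in 1406 of 8565 tested genes with one, 16.4%. Below are the promoters (the stretch around the start of the gene) of the 2 called members with the largest rises that hold it, chosen after their values were seen. They are Fcgr3, the low-affinity IgG receptor (chr1:171059345-171059644, minus strand), and Mrc1, the mannose receptor CD206 (chr2:14229164-14229463, plus strand), in RefSeq on GRCm38.p6. Capitals mark the motif as it reads on the gene's strand.
Fcgr3: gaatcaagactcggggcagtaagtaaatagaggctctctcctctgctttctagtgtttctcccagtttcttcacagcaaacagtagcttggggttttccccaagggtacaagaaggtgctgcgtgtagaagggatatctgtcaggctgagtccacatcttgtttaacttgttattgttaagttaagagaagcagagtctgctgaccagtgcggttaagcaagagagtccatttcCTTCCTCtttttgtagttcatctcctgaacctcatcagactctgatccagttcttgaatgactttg
Mrc1: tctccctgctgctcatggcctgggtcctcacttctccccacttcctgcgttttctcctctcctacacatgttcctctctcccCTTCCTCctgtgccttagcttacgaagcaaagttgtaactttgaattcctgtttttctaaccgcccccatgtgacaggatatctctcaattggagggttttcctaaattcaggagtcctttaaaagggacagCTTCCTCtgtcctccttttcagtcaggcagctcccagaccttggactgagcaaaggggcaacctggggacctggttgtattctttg
Fcgr3 read 8.07 and 8.43 in SGCF and 6.96 and 6.85 in 6TCF, a difference of 1.35 ± 0.16. Mrc1 read 7.96 and 7.63 in SGCF and 6.60 and 6.39 in 6TCF (1.30 ± 0.14). A match describes the letters in this window and was not tested as a binding site.

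Several of the largest rises outside the list are genes that myeloid cells are known to express. Ccl12, a chemokine that attracts monocytes, had the largest rise of all 10674 genes tested. It read 8.0 and 8.30 in SGCF and 5.18 and 5.64 in 6TCF, a difference of 2.73 ± 0.21 (6.65-fold, limma adjusted p = 2.25e-05). The 6TCF value of 5.18 lies below the filter level of 5.25, so the size of this difference is uncertain. Fcrls, an Fc receptor-like gene of tissue macrophages and microglia, read 7.77 and 7.89 in SGCF and 5.98 and 5.76 in 6TCF (1.96 ± 0.12). Cd72, a lectin-like receptor of B cells and macrophages, differed by 1.59 ± 0.18, with dim 6TCF values (5.15 and 5.25) that leave the size uncertain. Srgn, the granule proteoglycan serglycin, read 6.92 and 7.87 in SGCF and 5.75 and 5.39 in 6TCF (1.82 ± 0.31). The myeloid chemokine gene Ccl6 went the other way, with 5.47 and 5.85 in SGCF and 7.64 and 7.65 in 6TCF (-1.99 ± 0.26, limma adjusted p = 0.000668).

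Chemokine and inflammatory genes were divided. Of 19 tested, 10 were called higher in SGCF (52.6%, against 8.59% of all genes) and 3 lower (15.8%, against 8.81%), with a median of 0.49, or -0.01 without normalization, where the median of all genes was -0.61. Saa3, an acute-phase protein, read 7.86 and 8.45 in SGCF and 6.19 and 5.68 in 6TCF (2.22 ± 0.25). The monocyte chemokine gene Ccl7 read 9.56 and 10.22 in SGCF and 7.73 and 7.85 in 6TCF (2.11 ± 0.21). Its neighbour Ccl2 read 10.47 and 10.64 in SGCF and 9.15 and 9.11 in 6TCF (1.43 ± 0.16), and the neutrophil chemokine gene Cxcl1 differed by 1.33 ± 0.20. The 3 genes that were lower were Ptgs2, the inducible cyclooxygenase (-1.20 ± 0.26), the adhesion molecule gene Icam1 (-0.70 ± 0.14) and the stromal chemokine gene Cxcl12 (-0.61 ± 0.19), named here after their values were seen. The summed intensity of the 19 genes was 12688 and 12367 in SGCF and 12849 and 13019 in 6TCF, so the list's total was not higher in SGCF although 10 members were. The number called was 5 without either 6TCF array and 8 without SGCF replicate 2.

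Among 27 tested interferon-stimulated genes, which cells switch on after type I or II interferon, 11 were called higher in SGCF (40.7%, against 8.59% of all genes) and 0 lower. Their median difference was 0.40, and -0.26 without normalization, where the median of all genes was -0.61. Cxcl10, an interferon-induced chemokine, read 6.73 and 7.12 in SGCF and 5.56 and 5.39 in 6TCF (1.45 ± 0.23, limma adjusted p = 0.00244). Usp18, a protease that removes the modifier ISG15, read 7.22 and 6.45 in SGCF and 5.63 and 5.62 in 6TCF (1.21 ± 0.20). The immunoproteasome subunit gene Psmb8 read 6.94 and 6.96 in SGCF and 5.83 and 5.93 in 6TCF (1.07 ± 0.13). The 16 members not called included the peptide transporter gene Tap1 (0.09 ± 0.13) and the class I light chain gene B2m (0.10 ± 0.16), also named after their values were seen. The number called was 7 without 6TCF replicate 1 and 5 without 6TCF replicate 2. The macrophage markers moved with this list and with the chemokines (mean level 7.97 and 8.0 in SGCF, 6.97 and 6.91 in 6TCF), and their part in either was not tested.

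The interferon-stimulated response element, searched on both strands as GAAA, any 2 bases and GAAA, was found in 13 of 24 tested members with a promoter in the table (54.2%) and in 321 of 8565 tested genes (3.75%). Of the 9 called members with a promoter, 6 held it. The 2 with the largest rises, again chosen after their values were seen, are Cxcl10 (chr5:92348840-92349139, minus strand) and Bst2, which encodes the virus-tethering protein tetherin (chr8:71537423-71537722, minus strand), both in RefSeq on GRCm38.p6. Capitals mark the element, and in Bst2 they cover 2 overlapping matches.
Cxcl10: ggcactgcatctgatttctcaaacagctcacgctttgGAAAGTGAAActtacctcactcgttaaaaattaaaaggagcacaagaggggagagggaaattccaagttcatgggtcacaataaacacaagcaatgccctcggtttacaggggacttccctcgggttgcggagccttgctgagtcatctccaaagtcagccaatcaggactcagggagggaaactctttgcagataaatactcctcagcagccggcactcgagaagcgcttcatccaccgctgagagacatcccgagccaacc
Bst2: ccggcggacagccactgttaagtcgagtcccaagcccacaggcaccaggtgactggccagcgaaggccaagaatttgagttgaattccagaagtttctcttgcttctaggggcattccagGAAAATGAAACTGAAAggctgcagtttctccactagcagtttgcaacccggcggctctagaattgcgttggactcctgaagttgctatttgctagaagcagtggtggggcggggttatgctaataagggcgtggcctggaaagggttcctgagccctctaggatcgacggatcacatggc
Bst2 read 8.81 and 8.42 in SGCF and 7.61 and 7.50 in 6TCF, a difference of 1.06 ± 0.15. Members with the element were also among those not called, such as Stat2 (-0.05 ± 0.21) and Ifih1 (0.27 ± 0.14).

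Mesothelium markers were lower in the SGCF cultures. Of 14 listed genes, 11 were tested, and 8 of these were called lower and 0 higher, against 8.81% of all genes called lower. Gpm6a, a membrane glycoprotein of neurons and mesothelium, had the largest fall of all genes tested. Its level was 5.83 and 5.55 in SGCF, against 8.58 and 8.56 in 6TCF, a difference of -2.88 ± 0.19, or 7.37-fold (limma, adjusted p = 1.5e-05). In the deposited intensity this is 31.7 and 29.5 in SGCF against 535 and 556 in 6TCF, before the normalization made here. These values include the difference in array brightness, with a median of all genes at -0.61 without normalization.

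Upk3b, the uroplakin of mesothelial cells, read 7.38 and 7.13 in SGCF and 9.53 and 9.37 in 6TCF (-2.19 ± 0.20). Bnc1, the zinc finger gene basonuclin 1, read 6.15 and 6.17 in SGCF and 8.04 and 8.01 in 6TCF (-1.87 ± 0.16). Msln, which encodes mesothelin, read 6.76 and 6.96 in SGCF and 8.54 and 8.23 in 6TCF (-1.52 ± 0.14). The 6TCF arrays lay above both SGCF arrays in each of these genes, as they did in 27.2% of all genes. Upk3b and Bnc1 are among the 15 largest falls, which were picked for arrays without overlap. Wt1, the transcription factor of coelomic mesothelium, read 5.73 and 5.14 in SGCF and 6.89 and 6.94 in 6TCF (-1.48 ± 0.18, limma adjusted p = 0.000529). Its SGCF value of 5.14 lies below the filter level of 5.25. The members not called were the keratin genes Krt8 (-0.79 ± 0.26) and Krt18 (-0.26 ± 0.18) and the transcription factor gene Gata4 (0.02 ± 0.13), and Upk1b, Lrrn4 and Muc16 had no probe set used here. The mean level of the 11 genes was 6.44 and 6.39 in the SGCF arrays and 7.72 and 7.64 in the 6TCF arrays. Their median difference was -1.27, with 7 or 8 members called when any 1 array was left out. Without normalization it was -1.93, beside a median of -0.61 for all genes.

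**Figure D2:**
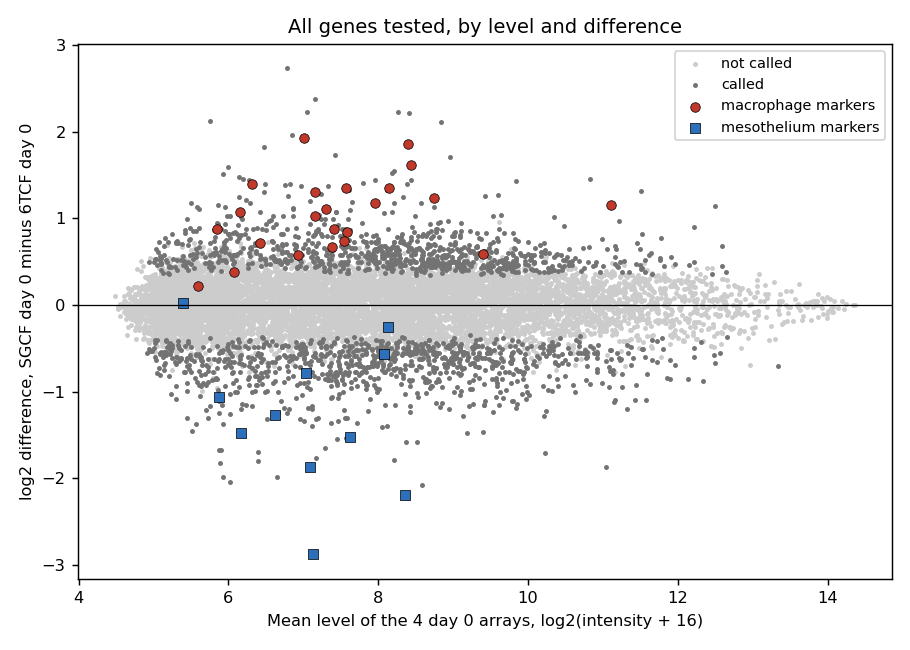
Difference between SGCF day 0 and 6TCF day 0 (log2) against the mean level of the 4 arrays, log2(intensity + 16), for the 10674 genes tested. Dark grey points are called genes, large circles the 23 macrophage markers and large squares the 11 mesothelium markers, whose medians lie at 1.07 and -1.27 while the median of all genes lies at 0.02.

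The large falls outside the mesothelium list had mixed known functions, and no theme was tested among them. Aldh1a1, which makes retinoic acid, read 7.42 and 7.67 in SGCF and 9.65 and 9.60 in 6TCF (-2.08 ± 0.14), and the related aldehyde dehydrogenase gene Aldh1a7 read 6.23 and 6.33 in SGCF and 7.98 and 8.13 in 6TCF (-1.77 ± 0.12). Transcripts of such close paralogues may share signal on an array. Cyp11a1, the enzyme that cleaves the cholesterol side chain, read 5.05 and 4.95 in SGCF and 7.22 and 6.87 in 6TCF (-2.04 ± 0.14). Star, which carries cholesterol into mitochondria for steroid synthesis, read 5.79 and 5.28 in SGCF and 7.30 and 7.18 in 6TCF (-1.70 ± 0.20). Inmt, a methyltransferase of indoles, differed by -1.67 ± 0.22, and Scel, which encodes sciellin of cornified and other epithelia, by -1.99 ± 0.15. Cyp11a1, Inmt (5.01 and 5.08) and Scel (4.97 and 4.89) lay below log2 5.25, the level used to filter genes, on both SGCF arrays. Their differences are therefore taken against dim values, and their size is uncertain. Of 13 tested simple epithelium markers, 4 were called lower (30.8%, against 8.81% of all genes) and 0 higher (median -0.37). Fewer were called when either 6TCF array was left out. The 3 keratin genes Krt8, Krt18 and Krt19 are shared between this list and the mesothelium list. Krt7 read 6.53 and 6.48 in SGCF and 7.85 and 7.82 in 6TCF (-1.32 ± 0.15). Epcam, the adhesion molecule of simple epithelia, was dim in both (5.18 and 5.51 in SGCF, 5.10 and 5.29 in 6TCF), and Cdh1, which encodes E-cadherin, lay below the filter.

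**Figure D3:**
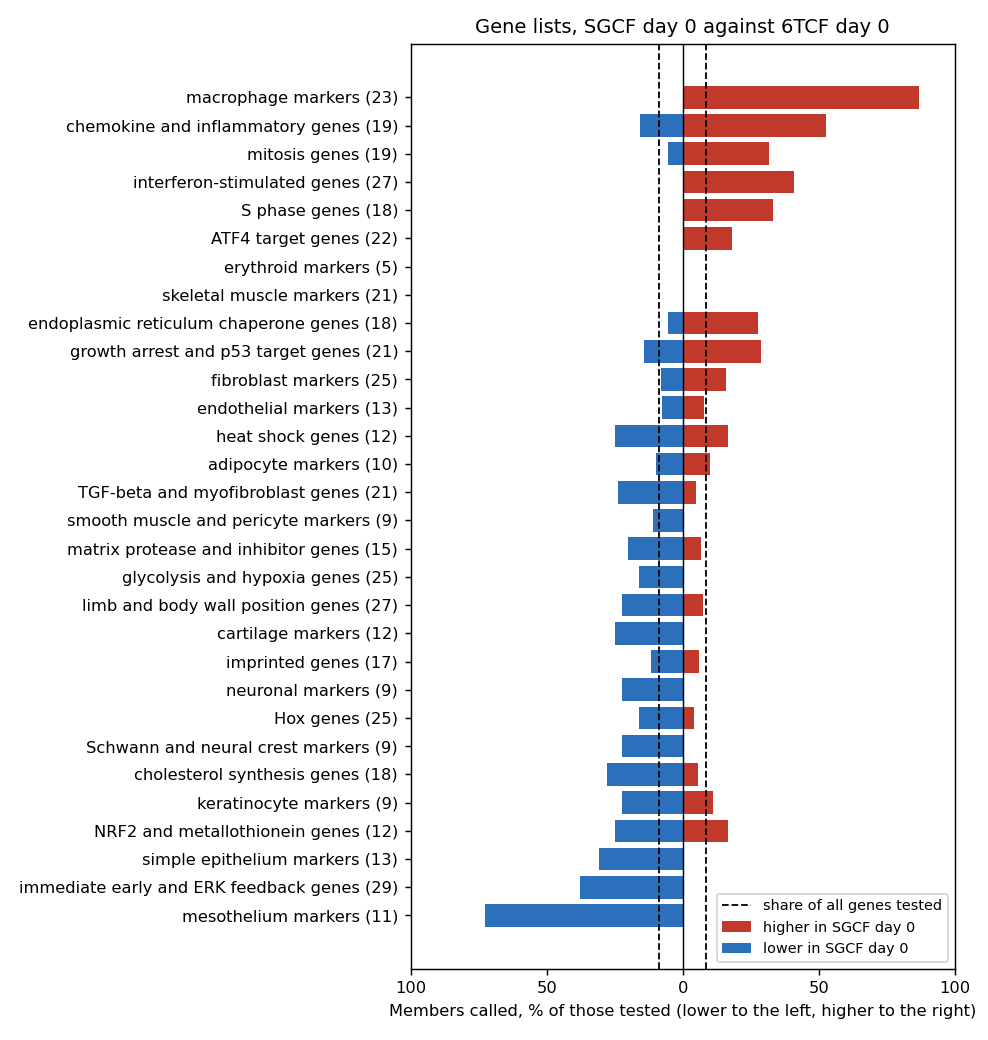
Share of tested members of each gene list that were called higher in SGCF day 0 (bars to the right) or lower (bars to the left), in percent, with the number tested in brackets. Dashed lines are the shares of all 10674 genes tested, 8.59% and 8.81%, and the lists with fewer than 5 tested members (bone and Y-linked genes with Xist) are left out. Macrophage markers have the longest bar to the right and mesothelium markers the longest to the left.

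Fibroblast markers were strong in all 4 arrays, with a mean level of 10.99 and 10.71 in SGCF and 10.78 and 10.68 in 6TCF. Of 25 tested, 4 were called higher and 2 lower (24%, against 17.4% of all genes), with differences of -0.95 to 2.21 and a median of 0.06. Without the 6TCF arrays in turn, 3 and 2 were called, and without SGCF replicate 1 the median was -0.06. The collagen gene Col1a1 read 11.33 and 11.13 in SGCF and 11.70 and 11.77 in 6TCF (-0.50 ± 0.16, limma adjusted p = 0.0503). Pdgfra, the receptor that marks mesenchymal fibroblasts, read 10.67 and 9.91 in SGCF and 9.94 and 9.70 in 6TCF (0.46 ± 0.20, adjusted p = 0.128), and without SGCF replicate 2 its adjusted p was 0.00812. Both cultures thus carried markers of the labelled cell type, and single members differed in either direction.

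Matrix and secreted protein genes, within that list and outside it, were among the largest rises. Lum, a list member that encodes the collagen-binding proteoglycan lumican, read 9.71 and 9.33 in SGCF and 7.48 and 7.14 in 6TCF (2.21 ± 0.15, limma adjusted p = 1.5e-05). Dpt, which encodes dermatopontin and is not on the list, read 9.09 and 9.67 in SGCF and 7.17 and 7.13 in 6TCF (2.23 ± 0.18). The list member Col6a2, a chain of the beaded-filament collagen VI, read 11.86 and 11.23 in SGCF and 10.25 and 9.94 in 6TCF (1.45 ± 0.20). All of these were higher in both SGCF arrays than in either 6TCF array, as were 31.9% of all genes. Lum and Dpt are among the 15 largest rises, which were picked for arrays without overlap. Ccn5, a matricellular protein of the connective tissue growth factor family, differed by 1.71 ± 0.15, and Egfl6, an EGF repeat protein of basement membranes, by 2.12 ± 0.27. Egfl6 lay below the filter level of 5.25 on both 6TCF arrays (4.70 and 4.68), so its difference is taken against dim values and its size is uncertain. Ecrg4, a secreted peptide precursor, differed by 1.73 ± 0.18. Lgr5, the receptor for R-spondins, which potentiate Wnt signalling, read 8.69 and 8.0 in SGCF and 6.18 and 5.74 in 6TCF (2.38 ± 0.22, adjusted p = 8.01e-05).

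Secreted antagonists and matrix genes also appeared among the falls. Fst, which encodes the activin antagonist follistatin, read 9.30 and 9.43 in SGCF and 11.05 and 11.11 in 6TCF (-1.71 ± 0.18). Tinagl1, a matricellular protein related to tubulointerstitial nephritis antigen, read 7.37 and 7.25 in SGCF and 9.17 and 9.05 in 6TCF (-1.79 ± 0.18). Of 21 TGF-beta and myofibroblast genes, 1 was called higher (4.76%, against 8.59% of all genes) and 5 lower (23.8%, against 8.81%). Their median was -0.10, and fewer were called when either 6TCF array was left out. The matricellular gene Postn was the one that rose, with 13.14 and 12.99 in SGCF and 11.97 and 11.88 in 6TCF (1.14 ± 0.13). Itga5, the fibronectin receptor subunit, fell (-0.97 ± 0.13). Of 15 matrix protease and inhibitor genes, 1 was called higher (6.67%) and 3 lower (20%), with a median of -0.12. Without SGCF replicate 2 their median was 0.20 and 2 were called, 1 was called without either 6TCF array and 8 without SGCF replicate 1. The collagenase gene Mmp13 read 7.39 and 7.39 in SGCF and 8.41 and 8.16 in 6TCF (-0.90 ± 0.14).

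Genes that record the position of origin in the embryo were mostly not called. Of 25 tested Hox genes, the homeobox genes whose combination marks the level along the body axis, 1 was called higher, 4 lower and 20 not, with a median of -0.22. The share called, 20%, lay near the 17.4% of all genes, so the count says nothing particular of these genes. Hoxa5 read 7.89 and 7.82 in SGCF and 8.83 and 8.69 in 6TCF (-0.91 ± 0.11, limma adjusted p = 0.000565). Hoxb5 (-0.87 ± 0.15) and Hoxb6 (-0.72 ± 0.13) were lower in SGCF as well, as was Hoxa4 (-0.60 ± 0.13, below the filter level on both SGCF arrays), while Hoxc9 was higher, with 8.29 and 8.30 in SGCF and 7.67 and 7.63 in 6TCF (0.64 ± 0.15). The Hoxa4 call was lost without 6TCF replicate 1 (adjusted p = 0.117) and the Hoxc9 call without either 6TCF array or SGCF replicate 2 (adjusted p = 0.051 to 0.0989). In all, 3 Hox genes were called without 6TCF replicate 1 and 8 without SGCF replicate 1.

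Of 27 limb and body wall position genes, 2 were called higher and 6 lower (29.6%, against 17.4% of all genes, median -0.16). Gata6, a transcription factor of lateral mesoderm and visceral organs, read 7.50 and 7.18 in SGCF and 8.73 and 8.77 in 6TCF (-1.41 ± 0.13). The T-box repressor gene Tbx2 read 5.27 and 5.24 in SGCF and 6.57 and 6.44 in 6TCF (-1.25 ± 0.15), and the forkhead gene Foxc1 differed by -0.84 ± 0.15. The number called was 3 without 6TCF replicate 2, 12 without SGCF replicate 1 and 5 without SGCF replicate 2. Mesothelium markers were also lower in SGCF (mean level 6.44 and 6.39, against 7.72 and 7.64 in 6TCF), and their part in these values was not tested.

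Markers of the remaining cell types were mostly dim or not called. None of 21 tested skeletal muscle markers was called by limma (median 0.12), and Myod1 read 5.66 and 5.61 in SGCF and 5.73 and 5.15 in 6TCF. Of 13 endothelial markers, 1 was higher and 1 lower (15.4% either way, against 17.4% of all genes). Flt1, a VEGF receptor, read 8.21 and 8.20 in SGCF and 7.39 and 7.56 in 6TCF (0.73 ± 0.19, adjusted p = 0.0263), but its probe sets disagreed in sign and the call was lost when any 1 array was left out (adjusted p = 0.0505 to 0.151). Kdr, another VEGF receptor, read 6.02 and 5.71 in SGCF and 6.88 and 6.81 in 6TCF (-0.99 ± 0.13), while Cdh5, which encodes the endothelial cadherin, was dim (5.27 and 4.92 in SGCF, 4.87 and 4.77 in 6TCF) and Pecam1 lay below the filter. The median of the endothelial list was 0.04, and 1 member was called without either 6TCF array or without SGCF replicate 2. The erythroid list had 0 of 5 called (median 0.15) and the bone list 0 of 3 (median 0.18), with Alas2 at 5.51 and 5.58 in SGCF and 5.27 and 5.34 in 6TCF and Sp7 at 5.98 and 5.42, against 5.77 and 5.55. Without SGCF replicate 1, 1 erythroid member was called, and without SGCF replicate 2, 1 bone member.

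Cartilage markers had 0 of 12 called higher and 3 lower (25%, against 8.81% of all genes). Their median was -0.18, and 0.04 with median centring. Col2a1, the cartilage collagen, read 6.76 and 6.58 in SGCF and 8.20 and 8.26 in 6TCF (-1.55 ± 0.14, limma adjusted p = 7.24e-05), and Acan lay below the filter. Of 9 smooth muscle and pericyte markers, 1 was called (11.1%, against 17.4% of all genes either way). This was Myh11, the smooth muscle myosin, at 6.89 and 5.95 in SGCF and 7.71 and 7.92 in 6TCF (-1.40 ± 0.28), and its call was lost without 6TCF replicate 2 (adjusted p = 0.0714). The list's median was -0.11, and without SGCF replicate 1 there were 2 calls. Of 9 keratinocyte markers, 1 was higher (11.1%, against 8.59% of all genes) and 2 lower (22.2%, against 8.81%). Their median was -0.28, and 0.11 with median centring. The basal keratin gene Krt5 read 5.90 and 6.31 in SGCF and 5.67 and 5.13 in 6TCF (0.71 ± 0.20), a call lost without 6TCF replicate 2 (adjusted p = 0.287) or SGCF replicate 2 (0.211). The desmosomal gene Dsp lay below the filter level in SGCF (4.78 and 4.78) and read 6.25 and 6.23 in 6TCF (-1.46 ± 0.16), while Krt14 was dim in all 4 arrays (5.73 and 5.45 in SGCF, 5.47 and 5.68 in 6TCF). Without the 6TCF arrays in turn, 2 and 1 cartilage members and 2 and 1 keratinocyte members were called.

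Of 9 Schwann and neural crest markers, 2 were called lower (22.2%, against 8.81% of all genes). Their median was -0.26, and 0.04 with median centring. Fabp7, a fatty acid binding protein of glial cells, read 5.51 and 6.20 in SGCF and 7.08 and 7.26 in 6TCF (-1.32 ± 0.20), while Sox10 read 6.39 and 6.22 in SGCF and 6.09 and 6.35 in 6TCF. Of 9 neuronal markers, 2 were called lower (22.2%, against 8.81% of all genes), with a median of -0.22, and 0.03 with median centring. Stmn2, a tubulin-binding protein of neurons, read 8.10 and 8.36 in SGCF and 9.35 and 9.48 in 6TCF (-1.18 ± 0.13). Of 10 adipocyte markers, 1 was higher and 1 lower (20% either way, against 17.4% of all genes, median -0.02). Adipoq was dim in all 4 arrays, at 4.55 and 4.73 in SGCF and 4.56 and 4.64 in 6TCF. Without either 6TCF array 0 adipocyte members and 1 neuronal member were called, and without SGCF replicate 2 there were 0 adipocyte members.

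Sex-linked genes bear on whether the cultures came from embryos of one sex. Xist, the RNA that coats the inactive X chromosome of females, read 8.46 and 7.89 in SGCF and 8.55 and 8.58 in 6TCF. The Y-linked gene Eif2s3y read 7.04 and 7.91 in SGCF and 7.89 and 7.79 in 6TCF. Kdm5d read 5.69 and 6.15 in SGCF and 6.39 and 6.27 in 6TCF, and Uty 6.32 and 6.73 in SGCF and 6.65 and 6.54 in 6TCF. Xist and the Y-linked genes were thus read together in every one of the 4 arrays. None of the 4 was called by limma (median -0.38), with Xist at -0.39 ± 0.17 (adjusted p = 0.133). Without SGCF replicate 1, Xist was called (adjusted p = 0.00815) and Eif2s3y differed by 0.07 in place of -0.37. Leaving out that array thus turned the direction of Eif2s3y, and the SGCF arrays differed from each other in it by more than the groups did.

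Genes of the cell cycle were higher in SGCF where they were called, with 1 exception. Of 18 S phase genes, 6 were called higher (33.3%, against 8.59% of all genes) and 0 lower (median 0.27, and -0.51 without normalization). Of 19 mitosis genes, 6 were called higher (31.6%) and 1 lower (median 0.46, and -0.32 without normalization, where all genes had -0.61). Cdk1, the kinase that drives entry into mitosis, read 10.66 and 11.04 in SGCF and 9.82 and 9.86 in 6TCF (1.01 ± 0.16, limma adjusted p = 0.00268). Nusap1, a spindle microtubule protein, read 9.19 and 9.21 in SGCF and 8.43 and 8.28 in 6TCF (0.84 ± 0.14). Its other probe set above the filter differed by 0.22. Cenpe, the kinetochore motor, was the exception, with 7.22 and 6.65 in SGCF and 8.06 and 8.24 in 6TCF (-1.21 ± 0.18). The proliferation marker Mki67 was not called (0.03 ± 0.24). Without 6TCF replicate 1, 0 S phase genes and 4 mitosis genes were called. Without 6TCF replicate 2 the counts were 2 and 3, and without SGCF replicate 2 they were 2 and 6.

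Growth arrest and p53 target genes were divided. Of 21, 6 were called higher (28.6%, against 8.59% of all genes) and 3 lower (14.3%, against 8.81%). The median was 0.06, and -0.06 with median centring. Among the higher, Cdkn2c, an inhibitor of cyclin-dependent kinases, read 8.96 and 8.84 in SGCF and 8.35 and 8.23 in 6TCF (0.61 ± 0.13). The antiproliferative gene Btg2 differed by 0.59 ± 0.13 and the death receptor gene Fas by 0.62 ± 0.18. These calls were lost without either 6TCF array (limma adjusted p = 0.0523 to 0.149), and that of Fas also without SGCF replicate 2 (0.185). Among the lower, Pmaip1, the proapoptotic p53 target Noxa, read 9.79 and 9.68 in SGCF and 10.57 and 10.79 in 6TCF (-0.94 ± 0.12). Without either 6TCF array 1 member was called, and without SGCF replicate 2 there were 6.

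Immediate early and ERK feedback genes, which growth factor signalling switches on within minutes to hours, were lower in SGCF where called. Of 29 tested, 11 were called lower (37.9%, against 8.81% of all genes) and 0 higher (median -0.44). Spry2, a feedback inhibitor of receptor kinase signalling, read 8.86 and 8.66 in SGCF and 9.71 and 9.76 in 6TCF (-0.97 ± 0.13, limma adjusted p = 0.000748). Its other probe set above the filter differed by -0.24. Nr4a2, an orphan nuclear receptor, read 6.23 and 6.12 in SGCF and 6.99 and 7.12 in 6TCF (-0.88 ± 0.14). The first-wave factors Fos (0.26 ± 0.14) and Egr1 (-0.05 ± 0.23), named after their values were seen, were not called. The number called was 6 without 6TCF replicate 1, 3 without 6TCF replicate 2 and 6 without SGCF replicate 2. Without normalization 26 were called, when 7027 genes of all were.

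Lists of metabolism and stress differed in their share of members called, set here against 8.59% of all genes called higher and 8.81% lower. The shares called either way in the glycolysis (16%), ATF4 (18.2%) and imprinted lists (17.6%) lay near the 17.4% of all genes. Those of the cholesterol (33.3%), chaperone (33.3%), NRF2 (41.7%) and heat shock lists (41.7%) lay above it, with calls in both directions. Of 18 cholesterol synthesis genes, 1 was called higher and 5 lower (median -0.27). Hsd17b7, a sterol reductase, read 8.30 and 8.09 in SGCF and 9.42 and 9.24 in 6TCF (-1.13 ± 0.13). Srebf2, the transcription factor that drives the pathway, read 8.01 and 7.66 in SGCF and 8.79 and 8.94 in 6TCF (-1.03 ± 0.16). Its other probe set above the filter differed by -0.44. Of 25 glycolysis and hypoxia genes, 0 were higher and 4 lower (median -0.13). Of 22 ATF4 target genes, which answer amino acid shortage, 4 were higher and 0 lower (median 0.22). Of 18 endoplasmic reticulum chaperone genes, 5 were higher and 1 lower (median 0.10, and -0.03 with median centring), among them the stress-induced membrane protein gene Herpud1 (0.84 ± 0.12) and Sdf2l1 (0.85 ± 0.15). Of 12 NRF2 and metallothionein genes, 2 were higher and 3 lower (median -0.29). Both metallothionein genes, whose proteins bind zinc, were lower on the probe sets used. Mt1 read 10.75 and 10.46 in SGCF against 11.62 and 11.50 in 6TCF, and Mt2 9.37 and 9.42 against 10.33 and 10.06. The other Mt1 probe set above the filter differed by only -0.01. The 2 higher members were Nqo1 (0.78 ± 0.20) and Gsta4 (0.56 ± 0.11).

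Of 12 heat shock genes, 2 were higher and 3 lower (median -0.01), with the co-chaperone gene Dnajb1 at 0.77 ± 0.13. Of 17 imprinted genes, 1 was higher and 2 lower (median -0.18). These short counts depended on single arrays. Without 6TCF replicate 2 the members called were 3 for cholesterol, 1 for glycolysis, 0 for ATF4, 2 for chaperones, 2 for NRF2, 1 for heat shock and 0 for imprinted genes. Without 6TCF replicate 1 they were 2 for cholesterol, 2 for glycolysis, 2 for chaperones, 2 for NRF2, 1 for heat shock and 0 for imprinted genes. Without SGCF replicate 2 there were 1 for glycolysis, 2 for heat shock and 1 for imprinted genes, and without SGCF replicate 1 there were 8 for ATF4 and 6 for imprinted genes. Malat1, a nuclear long noncoding RNA, was among the largest falls of all genes, with 10.22 and 9.99 in SGCF and 11.89 and 12.07 in 6TCF (-1.87 ± 0.17). Its other probe sets above the filter differed by -1.78 to -0.23. Tph1, which makes the serotonin precursor, read 5.10 and 4.87 in SGCF, below the filter level of 5.25, and 6.66 and 6.94 in 6TCF (-1.82 ± 0.14). Bach2, a transcription repressor of lymphocytes, read 5.96 and 5.04 in SGCF and 7.21 and 7.38 in 6TCF (-1.80 ± 0.26). Its SGCF value of 5.04 also lies below that level, and the sizes of the Tph1 and Bach2 differences are uncertain.

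The arms were set against each other again on the day 5 and day 10 arrays, which share no array with day 0 but carry the chemicals as well as the arm. Limma called 2520 genes at day 5 (23.6%, with 10.9% higher and 12.8% lower) and 2931 at day 10 (27.5%, with 13.4% higher and 14.1% lower). Of the 917 genes higher in SGCF at day 0, 257 (28%) were higher at day 5 and 145 (15.8%) at day 10, which is 22.2% and 10.2% of the genes higher on those days. Of the same 917, 109 were lower at day 5 and 192 at day 10. Of the 940 genes lower at day 0, 384 (40.9%) were lower at day 5 and 234 (24.9%) at day 10, which is 28.2% and 15.6% of the genes lower on those days. In 39 of them at day 5 and 125 at day 10, SGCF was called higher instead. In all, 73 genes were higher and 179 lower at all 3 days. Array brightness divides the arms on every day, so these comparisons do not separate brightness from the arm.

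The mesothelium markers stayed lower in the SGCF arm. Their median arm difference was -2.13 at day 5 and -2.72 at day 10, with 10 of 11 called lower on both days. The mean level was 6.44 and 6.39 at day 0, 6.47 and 6.64 at day 5 and 6.36 and 6.63 at day 10 on the SGCF arrays. On the 6TCF arrays it was 7.72 and 7.64, then 8.67 and 8.72, then 9.08 and 9.13. The widening of the gap lies in the 6TCF arrays, while the SGCF arrays kept to one narrow range. Wt1 read 6.34 and 6.50 in SGCF at day 10, against 9.87 and 9.72 in 6TCF, and Gpm6a 5.15 and 5.81, against 9.86 and 9.85. The arm difference of Upk3b was -3.05 at day 5 and -3.27 at day 10, and that of Bnc1 -2.09 on both days.

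The macrophage markers did not stay higher. Their median arm difference was -0.05 at day 5, with 1 of 23 called higher and 4 lower, and -0.69 at day 10, with 0 higher and 12 lower. Their mean level was 7.97 and 8.0 at day 0, 5.96 and 5.85 at day 5 and 5.70 and 5.80 at day 10 on the SGCF arrays. On the 6TCF arrays it was 6.97 and 6.91, then 5.94 and 6.10, then 6.46 and 6.41. Levels were thus lower at the later days than at day 0 in both arms. C1qa read 5.29 and 5.38 at day 5 in SGCF, against 4.87 and 5.14 in 6TCF, and 4.84 and 4.95 at day 10, against 5.54 and 5.63.

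**Figure D4:**
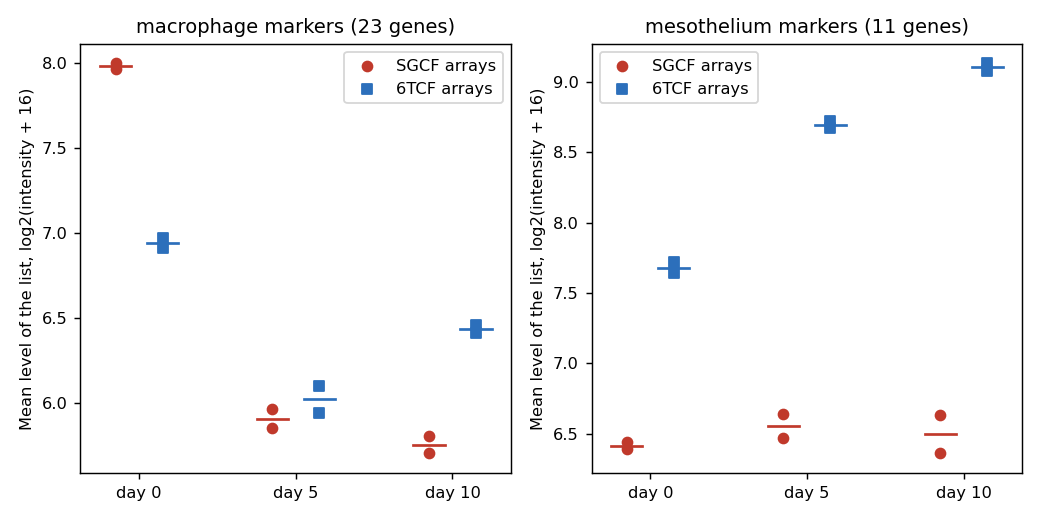
Mean level, log2(intensity + 16), of the 23 macrophage markers (left) and the 11 mesothelium markers (right) on each array by day. Circles are SGCF arrays, squares 6TCF arrays and short lines group means. At day 0 the SGCF arrays lie at 7.97 and 8.0 for macrophage markers, above the 6TCF arrays, and by day 10 below them, while for mesothelium markers the SGCF arrays lie below the 6TCF arrays on every day.

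Single genes of the day 0 contrast followed different courses. They were picked by their day 0 differences, a choice that favours later moves towards 0. Lgr5, higher in SGCF at day 0, was lower in SGCF later. It read 4.84 and 5.00 in SGCF at day 5, against 7.94 and 8.33 in 6TCF, and its arm difference was -3.21 at day 5 and -2.36 at day 10. Lum reached 12.22 and 12.39 in SGCF and 12.53 and 12.50 in 6TCF at day 5, so a starting difference of 2.21 became -0.21. Aldh1a1 kept its arm difference (-1.99 at day 5 and -2.51 at day 10), as did Cyp11a1 (-1.95 and -2.09) and Scel (-2.03 and -2.17). Fst (-0.16 and 0.05), Tinagl1 (-0.12 and 0.12) and Tph1 (-0.06 and -0.14) had arm differences near 0 on both days. A test of the difference itself called 958 genes for day 5 minus day 0 (8.98%) and 2740 for day 10 minus day 0 (25.7%). The counts were 598 and 1672 without 6TCF day 0 replicate 1, 566 and 1447 without 6TCF day 0 replicate 2, and the second was 1463 without 6TCF day 10 replicate 1.

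**Figure D5:**
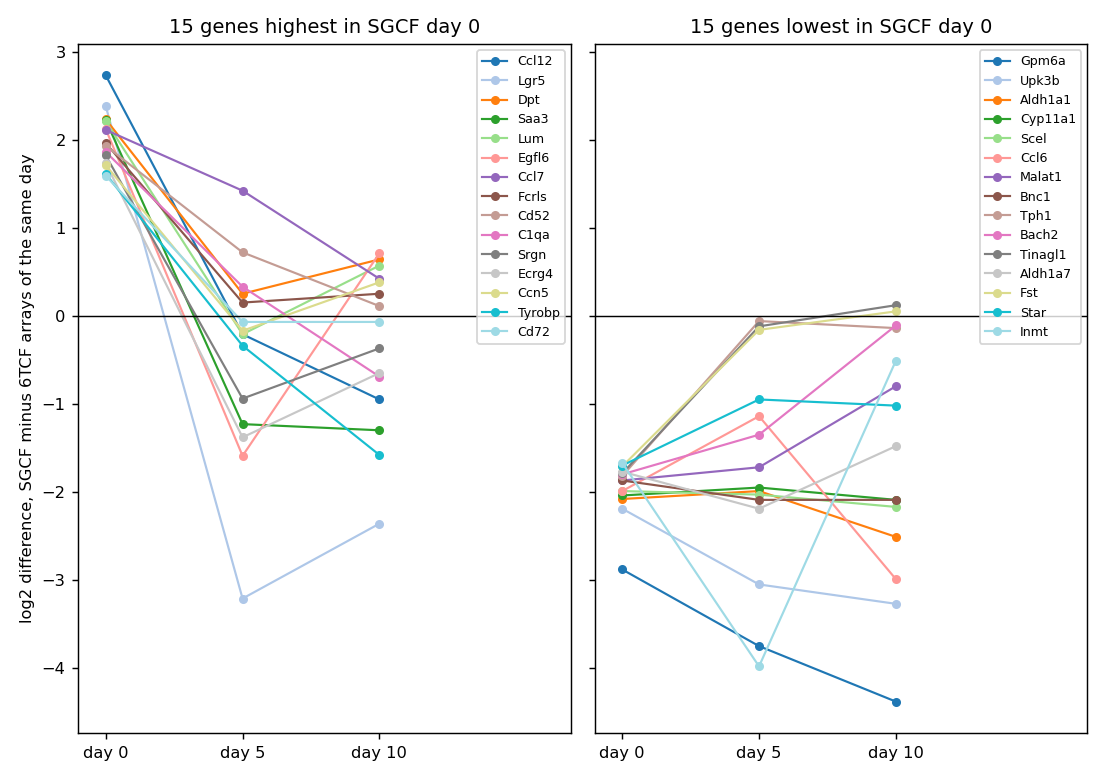
Arm difference, SGCF minus 6TCF arrays of the same day on the log2 scale, at days 0, 5 and 10 for the 15 genes highest (left) and the 15 lowest (right) in SGCF at day 0. Lines join the fitted differences of one gene, each from 2 arrays a group. Most genes of the left panel lie near or below 0 at the later days, while Gpm6a, Upk3b, Aldh1a1, Cyp11a1, Scel and Bnc1 of the right panel lie near or below their day 0 value.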

How the data were processed

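Total RNA of mouse embryonic fibroblasts was extracted, amplified by in vitro transcription, labelled with biotin and hybridized to Affymetrix 430A 2.0 mouse arrays, per the labels' protocols. The authors deposited linear intensity values for 22690 probe sets on 12 arrays. MAS5, RMA and limma stand in the submitters' processing notes with no version or role, so the tool behind the intensity values is unknown here. Array medians differed between arrays, while the deposited hybridization and poly-A controls had median arm differences of -0.12 and -0.09 at day 0. Whether the deposited values share a common scale is therefore not known here.

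Here, log2(intensity + 16) was quantile normalized between the 12 arrays. The platform annotation gave 1 gene symbol to 20380 probe sets, several to 691 and none to 1555, and 20351 were matched to RefSeq of GRCm38.p6 by Entrez number. Those with several symbols were not used for gene names. For 12393 genes the brightest probe set on average stood for the gene, and 10674 genes whose highest group mean exceeded the 25th percentile of all values (log2 5.25) were tested. Limma 3.58.1 in R 4.3.3 fitted 6 group means of 2 arrays each (lmFit, eBayes, 6 residual and 5.75 prior degrees of freedom), with Benjamini-Hochberg adjustment over all genes and calls at an adjusted p under 0.05. Contrasts were SGCF minus 6TCF at each day, and the day 5 and day 10 differences minus that of day 0. The number of arrays limits the precision. The 64 control probe sets were used for quality only. Tested on simulated data for the day 0 contrast over 10674 genes, the fit recovered 22 of 50 genes changed by 0.5 on the log2 scale and 50 of 50 at each of 1, 2 and 3, with 10 false calls. The simulated arrays had independent normal noise, the same spread in all groups and no difference in brightness. The simulation therefore does not measure errors that brightness or unequal spread may bring to the real contrast.

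The groups, the 32 gene lists (628 entries) and the rules were chosen with earlier results of these data known, so no list is independent evidence. Lists are described by counts and medians beside those of all genes. Genes named are the 15 that rose most and the 15 that fell most among called genes with at least 2-fold differences and no overlap of arrays, up to 4 called members of each list with the largest changes, defining markers of cell types, Y-linked genes and Xist, and the highest called Hox paralogues. Others are said to be chosen after their values were seen. Of 43 named genes with several probe sets above the filter, 40 had the same sign on all. The size could differ between them. The difference was smaller on the other probe set for Mt1 (-0.01, against -0.95 used) and Nusap1 (0.22, against 0.84). It was larger for the ATF4 target gene Trib3 (1.05, against 0.86). Replicate numbers come from the sample titles. The correlation of deviations from the group means over the 15 pairs of groups was -0.28 to 0.11, with 1 pair over 0.1, so the numbers were not taken to pair arrays. Alternatives were the normalization, the pseudocount, the filter, the choice of probe set, the eBayes setting, the replicate block, leaving out each array and, chosen after seeing the data, no normalization and a fit on the 4 day 0 arrays alone.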

Additional observations from a re-analysis of the deposited data

Results flagged for a closer look

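For the 30 genes with the largest day 0 differences, the arm difference at a later day was tested against that at day 0 by an interaction contrast in limma, and those past an adjusted p of 0.05 are given here as the log2 change of the arm difference. These genes were picked for extreme day 0 differences, and each contrast contains that same difference. The choice thus favours arm differences that move towards 0, and the adjusted p does not allow for it. No explanation of the changes was tested.

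At day 5, chemokine, acute-phase and macrophage genes among the day 0 rises had smaller or opposite arm differences. The change was -2.94 for Ccl12, -1.80 for Fcrls, -1.22 for Cd52, -1.53 for C1qa, -1.95 for Tyrobp, -1.66 for Cd72, -2.76 for Srgn and -3.45 for Saa3. Genes of the matrix and of secreted factors did so too, with -1.98 for Dpt, -2.42 for Lum, -3.71 for Egfl6, -1.87 for Ccn5 and -3.11 for Ecrg4. The R-spondin receptor gene Lgr5 changed by -5.60. Among the day 0 falls, the change was 1.76 for Tph1, 1.68 for Tinagl1 and 1.55 for Fst, whose arm differences then lay near 0. The arm difference of Inmt moved further from 0, with a change of -2.31.

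At day 10, the change was -3.68 for Ccl12, -1.68 for Ccl7, -1.71 for Fcrls, -1.82 for Cd52, -2.55 for C1qa, -3.20 for Tyrobp, -1.66 for Cd72, -2.20 for Srgn and -3.52 for Saa3. Matrix and secreted genes changed by -1.59 for Dpt, -1.65 for Lum, -1.41 for Egfl6, -1.33 for Ccn5 and -2.38 for Ecrg4, and Lgr5 by -4.75. Mesothelium genes moved further apart, with -1.50 for Gpm6a and -1.07 for Upk3b. Among the remaining falls, the arm difference moved towards 0 by 1.07 for Malat1, 1.68 for Tph1, 1.69 for Bach2, 1.92 for Tinagl1, 1.77 for Fst and 1.16 for Inmt. Aldh1a1, Cyp11a1, Scel, Bnc1, Aldh1a7, Ccl6 and Star passed this test at neither day.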

How the results depend on the processing

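All 30 genes with the largest day 0 differences kept direction under every alternative in which they were tested, 29 of 29 where the filter stood at the median. They also kept their call wherever all 4 day 0 arrays were used. The genes were picked from these same arrays for large differences without overlap, so this is no independent support. Counts over all genes depended on the settings. Quantile normalization and fit on the 4 day 0 arrays called 627 genes (281 higher, 346 lower), and a fit on those 4 arrays alone, chosen after seeing the data, 631 (285 and 346). No normalization, also chosen later, called 7027 (65 and 6962), with 14 higher and 1940 lower at 2-fold, 7907 at day 5 and 8664 at day 10. Median centring called 1384 higher. At 2-fold, 139 were higher and 206 lower with a pseudocount of 1, and 37 and 58 with 64. Leaving out 1 array gave 378 to 2987 genes (161 to 1419 higher, 217 to 1568 lower), 72 to 134 and 102 to 246 at 2-fold, 1300 to 3179 at day 5, 1516 to 3593 at day 10, and 566 to 1327 and 1447 to 3830 for the changes in arm difference to days 5 and 10. The block by replicate number, which the check of pairing did not bear out, called 1627 genes at day 0. Of 131 named genes, those that lost their call were 49 without 6TCF replicate 2, 42 without 6TCF replicate 1, 30 without SGCF replicate 2, 7 without SGCF replicate 1 (where 2 changed sign), 34 on the 4 day 0 arrays and 2 under the block.

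The macrophage median was 0.85 with cyclic loess, 1.10 on the 4 day 0 arrays, 1.2 and 0.77 with pseudocounts of 1 and 64, 1.16 with the filter at the median, 0.94 with the mean of all probe sets, 0.93 to 1.05 leaving out 1 array and 0.41 without normalization (8 called, 14 to 19 leaving out 1 array). The mesothelium median was -1.32 on the 4 arrays, -1.52 and -0.85 with the pseudocounts, -1.37 with the filter at the median, -1.34 to -1.18 leaving out 1 array and -1.93 without normalization.

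Some list medians changed sign. With median centring they were 0.04 for cartilage, 0.11 for keratinocyte, 0.04 for Schwann, 0.03 for neuronal, 0.10 for adipocyte, -0.06 for growth arrest and -0.03 for chaperone genes. Without a filter they were -0.02 for endothelial, 0.04 for keratinocyte and 0.02 for adipocyte markers, with the filter at the median 0.01 for adipocyte markers, and with the mean of all probe sets -0.02 for endothelial and 0.04 for adipocyte markers and 0.05 for Uty. Leaving out 1 array gave medians of -0.05 to 0.1 for endothelial, -0.04 to 0.06 for adipocyte, -0.06 to 0.13 for fibroblast, -0.14 to 0.13 for heat shock and -0.15 to 0.20 for matrix protease genes, -0.81 to 0.07 for Eif2s3y and -0.28 to 0.14 for Uty. Without normalization the medians were -0.51 for S phase, -0.32 for mitosis, -0.26 for interferon and -0.01 for chemokine genes. Apart from fewer arrays, the cause of these shifts was not tested. Dim genes limit the comparison: 8.52% of the dimmest genes, 1 of 5 equal groups by level, were called, against 16.2% to 23.2% in the others.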

Other observations

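Called genes were spread over the chromosomes. The share called was 14.3% on chromosome 9 and 20.1% on chromosome 19, the lowest and highest of those measured, and the median difference per chromosome was -0.03 to 0.05. Of 761 called genes with several probe sets above the filter, 548 (72%) had the same sign on all of them. Among named genes the sign differed between probe sets for Edem1, Flt1 and Mmp23.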
